A study of Homo sapiens with 6 samples.

Results

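ISG15 conjugation was followed through 6 genes, namely ISG15 itself, its E1 enzyme UBA7, its E2 enzyme UBE2L6, its E3 ligase HERC5, the related ligase HERC6 and the protease USP18. The genes were picked by symbol from the 28278 genes in the files, and the choice rested on measured differences between these same libraries. Their siALDOA and siControl values are therefore given as a description, with no test. All 6 genes had enough reads to enter the fit across 15307 genes.

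The cells were HT29, a human colorectal adenocarcinoma line of epithelial morphology. In the siALDOA group, HT29 cells received siRNA against ALDOA, the glycolytic enzyme aldolase A, and in the siControl group they received a scrambled siRNA. RNA was collected 48 h later, and each group held 3 libraries labelled as biological replicates. The number of siRNAs used against ALDOA is not given in the sources used here. Loss of ALDOA and any other effect of the siRNA treatment cannot be told apart. The labels do not say how the replicate cultures were made, and p-values measure the spread between these libraries.

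ISG15 is a small protein built of paired ubiquitin-like domains, and its gene is among those most strongly induced by type I interferon. It is attached to lysines of other proteins by a cascade of its own: UBA7 activates it, UBE2L6 carries it, and HERC5 transfers it to newly made proteins at the ribosome. USP18 removes it, and also binds the interferon receptor subunit IFNAR2 and dampens signalling from that receptor. In mice HERC6 is the main ISG15 ligase, whereas in human cells that role belongs to HERC5. Free ISG15 is also secreted, and inside the cell it stabilizes USP18. The bulk libraries cannot separate a change in the number of expressing cells from a change in RNA per cell.

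The libraries held 27277538 to 33237914 gene counts. ALDOA itself was at 289 ± 13.7 reads per 1000000 counted reads (CPM; mean ± SD, n = 3) after siALDOA and at 632 ± 38.2 CPM in siControl, a log2 fold change of -1.13 (SE 0.060; edgeR quasi-likelihood adjusted p = 6.95e-11). Ribosomal RNA took 7.71% to 13.1% of counts in the siALDOA libraries and 8.15% to 17.4% in the siControl libraries. Of the 10 epithelial markers, 9 were measured, with a summed level of 9470 to 9801 CPM after siALDOA and 10035 to 10595 CPM in siControl, and LGALS4 was listed at 0 in every library. Of the 9, KRT19 rose from 890 ± 47.9 to 1156 ± 55.3 CPM (log2 fold change 0.38, SE 0.065, edgeR adjusted p = 5.77e-04) and KRT18 fell from 2319 ± 64.3 to 1910 ± 56.3 CPM (-0.28, SE 0.072, adjusted p = 0.0152). The KRT18 call was lost with library totals and without siALDOA replicate 2 or 3 or siControl replicate 2 or 3 (adjusted p from 3.61e-07 to 0.243 over all settings). Among the tested genes, 668 (4.36%) were higher and 810 (5.29%) lower after siALDOA at an adjusted p under 0.05. Scaling by library totals alone gave 896 higher and 279 lower, and the counts were 359 and 490 without siControl replicate 2 and 363 and 471 without siControl replicate 3.

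The promoters of the pathway were read first, since interferon-induced genes carry a recognisable element. The interferon-stimulated response element is bound by the transcription factor complex that type I interferon activates and has the core GAAANNGAAA, or TTTCNNTTTC when read on the other strand. Windows from 250 bases before to 50 bases after the transcription start were taken from RefSeq (GRCh38.p14, the same coordinates as hg38), and 4 of the 6 genes were matched in the table used here; UBA7 and USP18 were not. The 4 windows are shown to set the genes with the core beside those without it, each written 5′ to 3′ on the strand of its gene, with matches to the core in capitals.
ISG15: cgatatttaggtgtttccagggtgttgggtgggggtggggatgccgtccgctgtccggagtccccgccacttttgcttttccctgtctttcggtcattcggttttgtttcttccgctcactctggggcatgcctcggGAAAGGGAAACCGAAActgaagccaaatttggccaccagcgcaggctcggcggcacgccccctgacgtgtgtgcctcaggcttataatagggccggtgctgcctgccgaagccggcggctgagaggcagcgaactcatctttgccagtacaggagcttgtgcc
HERC5: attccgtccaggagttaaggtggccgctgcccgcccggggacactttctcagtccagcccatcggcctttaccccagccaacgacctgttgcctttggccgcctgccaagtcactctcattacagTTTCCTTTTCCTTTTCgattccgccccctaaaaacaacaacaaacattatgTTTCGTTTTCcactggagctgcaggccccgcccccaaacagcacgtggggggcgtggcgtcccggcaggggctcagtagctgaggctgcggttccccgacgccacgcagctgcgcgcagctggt
UBE2L6: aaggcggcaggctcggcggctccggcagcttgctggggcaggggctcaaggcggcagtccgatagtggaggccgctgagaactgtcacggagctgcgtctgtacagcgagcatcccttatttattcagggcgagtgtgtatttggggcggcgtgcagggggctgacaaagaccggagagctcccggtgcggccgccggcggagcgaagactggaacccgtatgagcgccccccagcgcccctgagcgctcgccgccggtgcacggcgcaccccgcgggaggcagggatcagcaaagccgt
HERC6: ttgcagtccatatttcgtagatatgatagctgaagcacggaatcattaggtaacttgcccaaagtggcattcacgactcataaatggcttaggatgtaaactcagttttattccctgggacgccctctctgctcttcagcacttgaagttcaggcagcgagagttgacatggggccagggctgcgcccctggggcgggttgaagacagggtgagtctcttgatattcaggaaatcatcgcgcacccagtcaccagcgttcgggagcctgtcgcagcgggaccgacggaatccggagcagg

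The ISG15 window (chr1:1013247-1013546, plus strand) held 2 overlapping matches, GAAAGGGAAA from position -113 to -104 and GAAACCGAAA from -107 to -98, counted from the start site. The HERC5 window (chr4:88456869-88457168, plus strand) held 3 matches on the other strand. The first 2, both TTTCCTTTTC, overlapped between -125 and -110, and TTTCGTTTTC lay from -74 to -65. No match was present in the UBE2L6 window (chr11:57567886-57568185, minus strand), in a second UBE2L6 window or in the HERC6 window (chr4:88378602-88378901, plus strand), which says only that these letters are not in those windows. Over all 35116 windows of this length, 1255 (3.57%) held the core and 91 (0.259%) held it at least 2 times. The core was thus found in the gene with the highest level and in the gene with the lowest level of the pathway, and not in UBE2L6, whose fold change was the largest of the 6. The gamma-activated site TTCNNNGAA, which STAT dimers bind and which reads the same on both strands, was in none of the 5 windows and in 2689 (7.66%) of all windows.

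ISG15 (ENSG00000187608, chr1:1001138-1014540 in hg38, plus strand) was at 181, 220 and 196 CPM in the 3 siControl libraries and at 406, 497 and 449 CPM in the 3 siALDOA libraries. Every siALDOA library was above every siControl library, and the lowest of the former exceeded the highest of the latter 1.84-fold. The means were 451 ± 45.5 and 199 ± 20.2 CPM (SD, n = 3 each), a log2 fold change of 1.18 (SE 0.076) or 2.27-fold. The counts behind these values, 5632 to 14955 reads, leave little counting error. In the order of log2 fold changes over all tested genes ISG15 stood 102nd from the top.

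UBA7 (ENSG00000182179, chr3:49805209-49813953, minus strand) starts the cascade by activating ISG15 at the expense of ATP. It was at 14.6, 16.1 and 16.3 CPM in siControl and at 26.7, 32 and 33.6 CPM after siALDOA. The groups did not overlap, with means of 15.7 ± 0.901 and 30.8 ± 3.59 CPM and a log2 fold change of 0.98 (SE 0.098). The small RNA gene MIR5193 lies within UBA7 on the same strand and had 4 to 22 reads per library, against 456 to 963 for UBA7.

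UBE2L6 (ENSG00000156587, chr11:57551656-57568284, minus strand) receives ISG15 from UBA7. Its level was 26.4, 33.2 and 26.1 CPM in siControl and 79.4, 102 and 101 CPM after siALDOA. This was the widest gap of the 6 genes: the lowest siALDOA library was 2.39-fold above the highest siControl library. The means of 94.2 ± 12.9 and 28.6 ± 4 CPM gave a log2 fold change of 1.72 (SE 0.098) or 3.30-fold, the 19th highest of all tested genes.

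HERC5 (ENSG00000138646, chr4:88457119-88506163, plus strand), the ligase, was the scarcest of the 6, at 1.54, 3.37 and 2.97 CPM in siControl and 2.94, 5.65 and 6.05 CPM after siALDOA. Here alone the groups overlapped, since the lowest siALDOA library lay within the siControl range. The means were 4.88 ± 1.69 and 2.63 ± 0.965 CPM, and the log2 fold change of 0.89 had the largest SE of the 6 genes, 0.27. In both groups the low library was replicate 1, with 82 reads after siALDOA and 48 reads in siControl, for which exact Poisson 95% intervals (counting error only) were 2.34 to 3.65 and 1.13 to 2.04 CPM. These intervals did not reach those of replicates 2 and 3 of the same group (4.84 to 7.03 CPM and 2.41 to 4.09 CPM), so the spread exceeded counting error. The same 2 libraries had the highest share of ribosomal RNA of their groups, 13.1% and 17.4%. In siControl replicate 2, the highest of its group for HERC5, that share was 15.3%. The part of ribosomal RNA in the HERC5 values was not tested. Without replicate 1 of both groups, an alternative added after the data were seen, the log2 fold change was 0.88. Leaving out single libraries moved it from 0.62 without siControl replicate 1 to 1.15 without siALDOA replicate 1.

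HERC6 (ENSG00000138642, chr4:88378739-88443097, plus strand) lies 14022 bases from HERC5 on the same strand. Its level was 46.2, 47.4 and 47.1 CPM in siControl and 75.3, 100 and 95.3 CPM after siALDOA. The siControl libraries were nearly equal and the siALDOA libraries were spread out, with means of 46.9 ± 0.622 and 90.2 ± 13.2 CPM. The log2 fold change was 0.94 (SE 0.084), close to that of HERC5, and HERC6 had at least 1441 reads in every library.

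USP18 (ENSG00000184979, chr22:18150118-18177397, plus strand), the protease that reverses the modification, was at 18.2, 18.7 and 17.8 CPM in siControl and 25.1, 30.2 and 33.3 CPM after siALDOA. The groups did not overlap, but the difference was the smallest of the 6: the means were 29.5 ± 4.11 and 18.2 ± 0.468 CPM, a log2 fold change of 0.70 (SE 0.099) or 1.62-fold. USP18 has a near-identical relative, USP41, which was not analysed here, and how reads shared by the 2 loci were counted is uncertain.

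**Figure D1:**
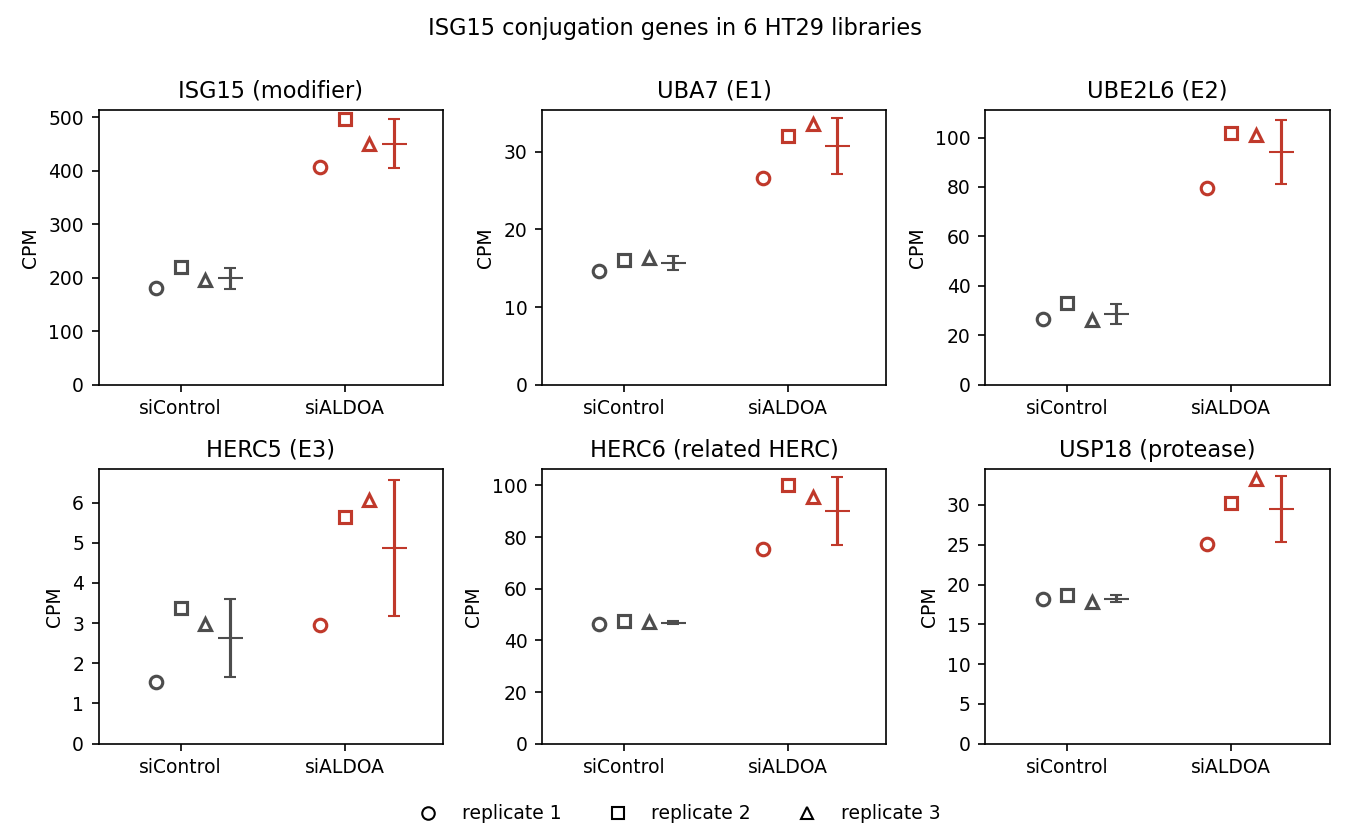
CPM (y axis, from 0, one scale per gene) of the 6 genes in the siControl (grey) and siALDOA (red) libraries, with one symbol per replicate and the mean ± SD (n = 3) beside them. The groups are apart for ISG15, UBA7, UBE2L6, HERC6 and USP18, and the HERC5 symbols overlap.

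Across the 6 genes the median log2 fold change was 0.96. For 5 of them no siALDOA library overlapped the siControl range, where 2005 (13.1%) of all tested genes were higher without overlap; since the genes were chosen on this contrast, nothing is read from that count. Within the siALDOA group, replicate 1 was the lowest library for all 6 genes, by 0.15 to 0.65 below the group mean on the log2 scale. In siControl, replicate 2 was the highest library for ISG15, UBE2L6, HERC5, HERC6 and USP18, and replicate 3 for UBA7. Of the values with 1 library left out, that without siALDOA replicate 1 was the highest for UBA7, HERC5, HERC6 and USP18, and that without siControl replicate 2 for ISG15 and UBE2L6.

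**Figure D2:**
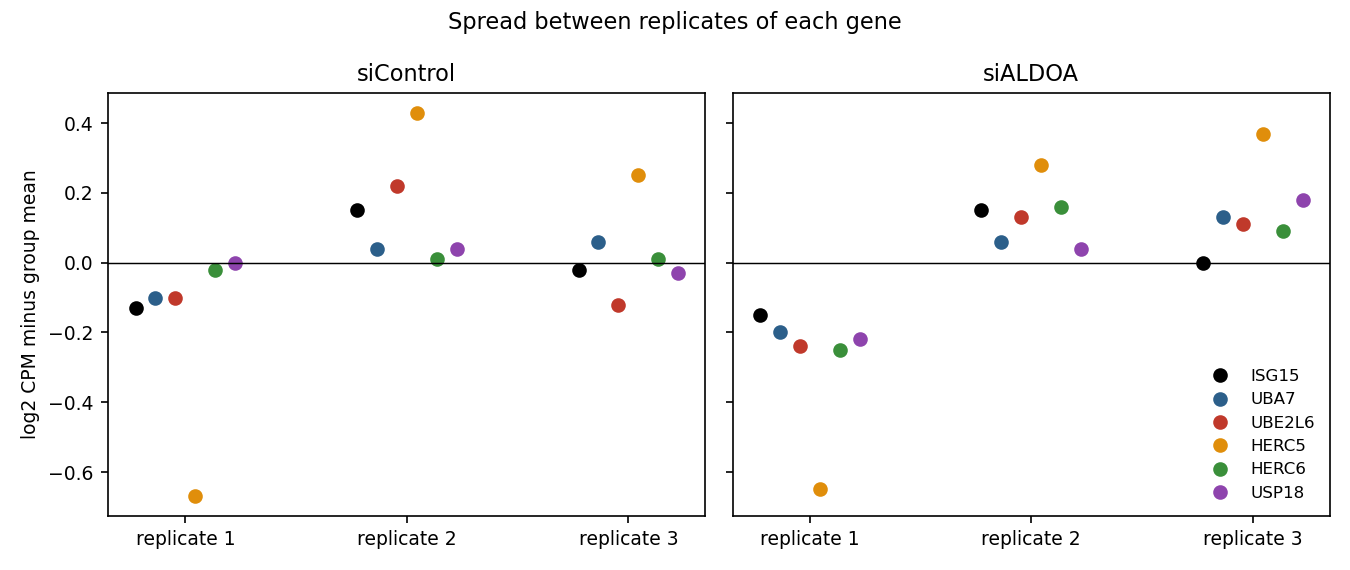
Log2 CPM of each gene minus its own group mean (y axis) in the 3 replicates of siControl (left) and siALDOA (right), one colour per gene. All 6 genes lie below 0 in siALDOA replicate 1, and HERC5 lies farthest below in replicate 1 of both groups, at -0.65 after siALDOA and -0.67 in siControl.

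To compare levels between genes, CPM was divided by the length of the exons of each gene in kilobases. In siALDOA, ISG15 was at 520 ± 52.5 CPM per kilobase, UBE2L6 at 45.7 ± 6.24, HERC6 at 15.6 ± 2.28, USP18 at 7.22 ± 1.00, UBA7 at 6.76 ± 0.789 and HERC5 at 1.03 ± 0.355. In siControl the same order held, with 229 ± 23.2 CPM per kilobase for ISG15, 13.9 ± 1.94 for UBE2L6, 8.12 ± 0.108 for HERC6, 4.45 ± 0.114 for USP18, 3.44 ± 0.198 for UBA7 and 0.552 ± 0.203 for HERC5. Neighbours in this order did not overlap between libraries of a group, except USP18 and UBA7 after siALDOA. The RNA of the modifier thus far outnumbered that of its enzymes per length. ISG15 made up 87.2% ± 0.841 of the summed level of the 6 genes after siALDOA and 88.3% ± 0.363 in siControl. Among 14469 tested genes with a known length, ISG15 stood at the 99.7th percentile after siALDOA and the 99.3rd in siControl. UBE2L6 stood at percentile 94.6 after siALDOA and 75.4 in siControl, whereas HERC5 stood at 21.9 and 15.7.

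**Figure D3:**
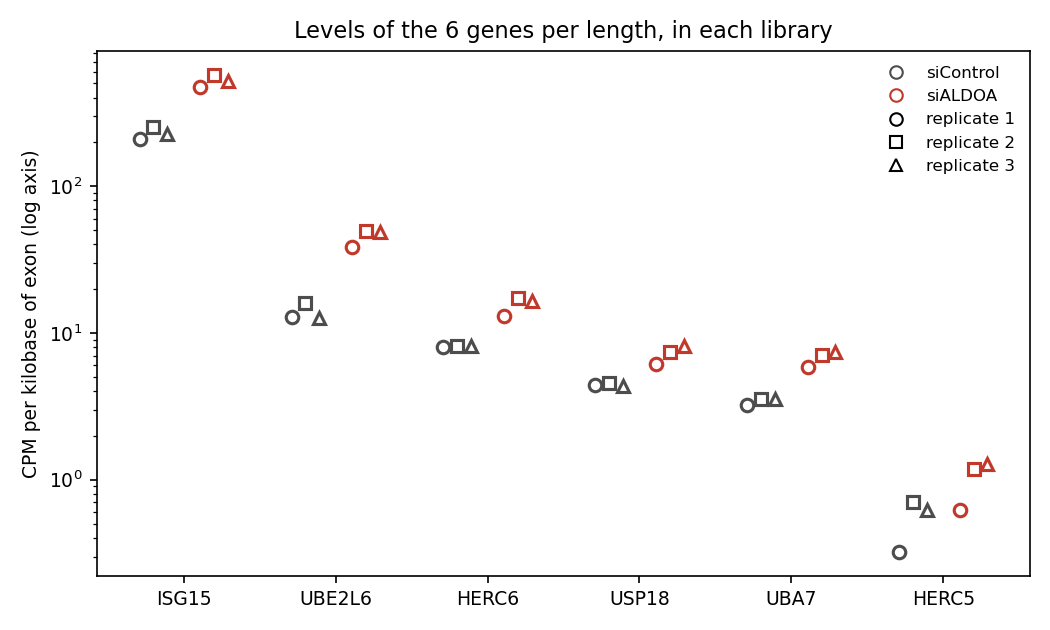
CPM per kilobase of exon (y axis, log scale) of the 6 genes in every library, ordered by level, siControl in grey and siALDOA in red. The order of genes is the same in both groups, and ISG15 lies above every other gene by more than the differences between the groups.

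The genes did not move by the same amount, and ratios within a library, on the per-kilobase scale, changed with the group. The ratio of ISG15 to UBE2L6 was 16.2, 15.8 and 17.8 in siControl and 12.2, 11.6 and 10.6 after siALDOA, without overlap. The RNA of the E2 enzyme was therefore nearer in level to that of its cargo after siALDOA. It was also higher against the E1, with UBE2L6 to UBA7 at 6.75 ± 0.270 after siALDOA and 4.03 ± 0.507 in siControl. For the protease the shift went the other way: ISG15 to USP18 was 46.9, 55.6 and 51.9 in siControl and 76.4, 77.7 and 63.7 after siALDOA. USP18 thus stood lower against ISG15, and against UBE2L6 as well, at 0.158 ± 0.00885 of the UBE2L6 level after siALDOA and 0.324 ± 0.0350 in siControl. The ratios of ISG15 to UBA7 (77.2 ± 6.08 and 66.6 ± 4.66), ISG15 to HERC5 (550 ± 184 and 455 ± 164) and HERC6 to HERC5 (16.2 ± 4.28 and 16.5 ± 7.21) overlapped between the groups. These ratios use the same contrast that chose the genes and were not tested.

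**Figure D4:**
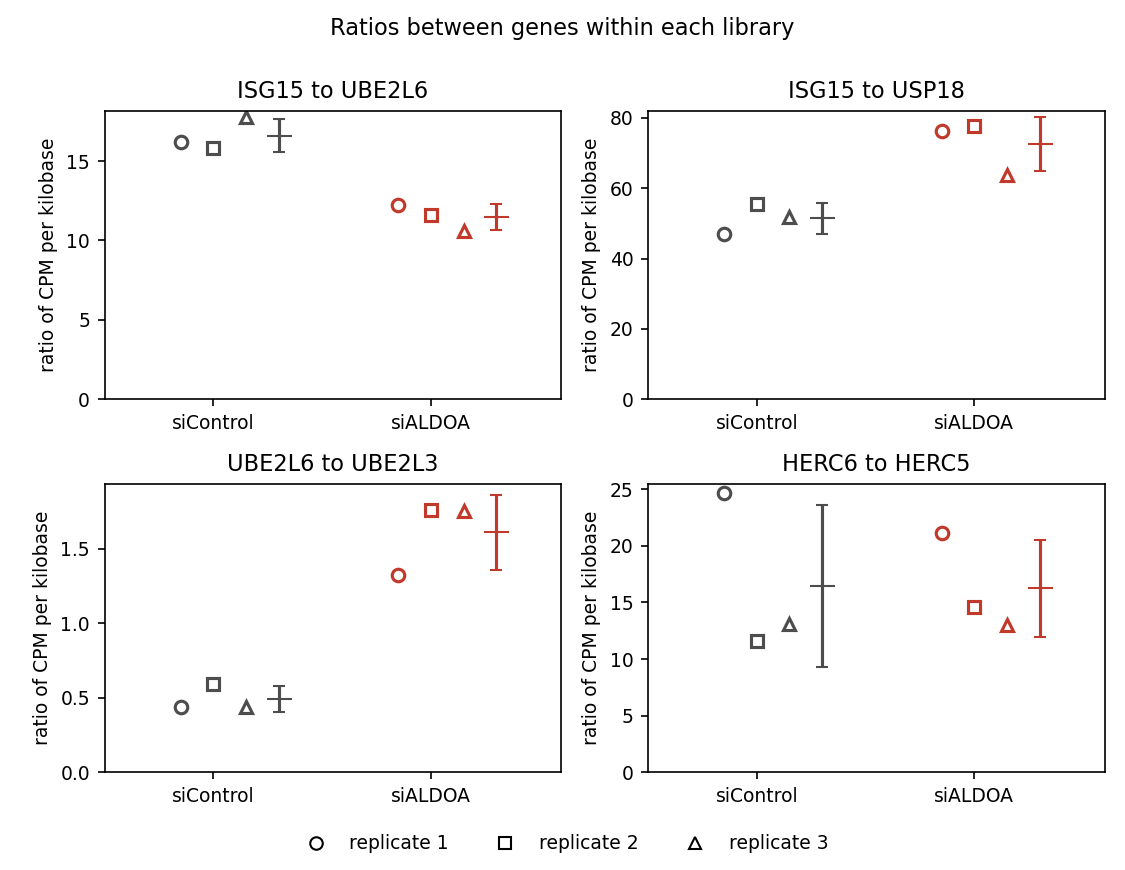
Ratios of CPM per kilobase between pairs of genes (y axis, from 0) in each library, with the mean ± SD (n = 3) of siControl (grey) and siALDOA (red). ISG15 to UBE2L6 is lower and ISG15 to USP18 and UBE2L6 to UBE2L3 are higher in every siALDOA library, and HERC6 to HERC5 overlaps.

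The closest relatives of the 6 genes, which serve ubiquitin rather than ISG15, were then examined. UBE2L3, the paralog of UBE2L6 that carries ubiquitin, was at 115, 107 and 114 CPM in siControl and 115, 111 and 110 CPM after siALDOA, a log2 fold change of 0.00 (SE 0.059; edgeR adjusted p = 0.978). Per kilobase, UBE2L6 was below UBE2L3 in every siControl library (ratios 0.439, 0.595 and 0.439) and above it in every siALDOA library (1.32, 1.76 and 1.75). UBA1, the main E1 enzyme of ubiquitin, was at 387 ± 3.65 CPM after siALDOA and 381 ± 8.08 CPM in siControl (log2 fold change 0.02, adjusted p = 0.837), and UBA6, a further ubiquitin E1, had a log2 fold change of 0.12 (adjusted p = 0.266). UBA1 stood 17.3 ± 1.39 times above UBA7 per kilobase in siControl and 8.98 ± 1.11 times above it after siALDOA. Of the other HERC genes, HERC1 (0.03), HERC2 (-0.04) and HERC3 (-0.18) did not pass the test. HERC4 did, at 54.3 ± 8.21 and 44 ± 4.48 CPM (log2 fold change 0.30, SE 0.094, edgeR adjusted p = 0.0454), but its groups overlapped and the call was lost in 6 of 15 alternative settings, among them limma-voom and the omission of siALDOA replicate 1 or 2 or of siControl replicate 2 or 3 (adjusted p from 0.00219 to 0.245 over all settings). Of the 7 paralogs tested, 1 rose (14.3%) and none fell at an adjusted p under 0.05, against 4.36% and 5.29% of all tested genes. Their median log2 fold change was 0.02, against 0.00 for all tested genes.

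**Figure D5:**
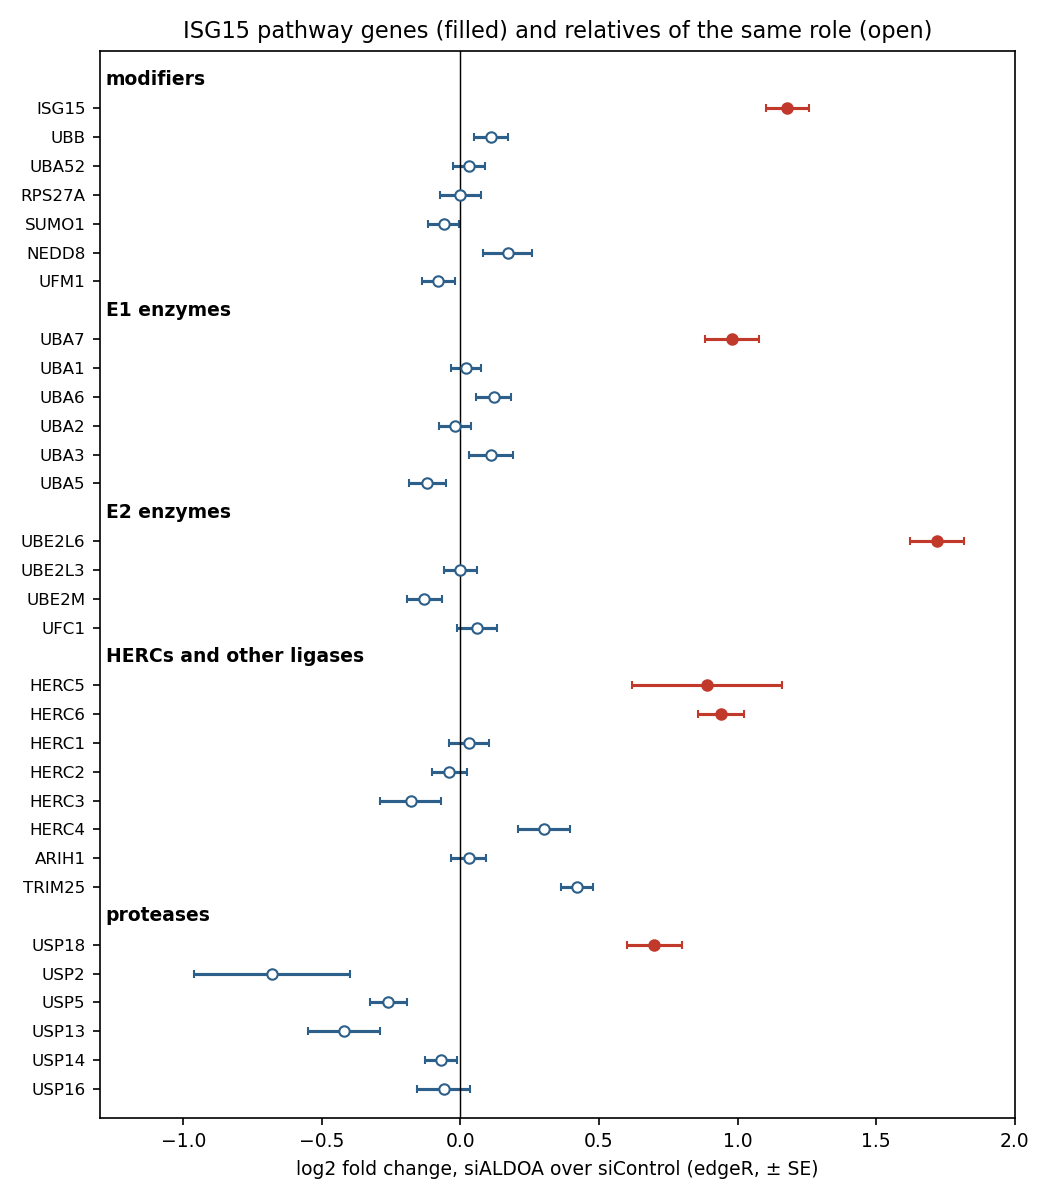
Log2 fold change of siALDOA over siControl (x axis, edgeR estimate ± SE) for the 6 ISG15 pathway genes (filled red) and genes of the same role (open blue), grouped by role. The filled points lie between 0.70 and 1.72, and the open points lie between -0.68 (USP2) and 0.42 (TRIM25).

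Other ligases and partners of ISG15 were few. TRIM25, a RING ligase that adds ISG15 to 14-3-3σ and ubiquitin to RIG-I, was at 293, 299 and 307 CPM in siControl and 374, 414 and 413 CPM after siALDOA. It rose without overlap (log2 fold change 0.42, SE 0.057, edgeR adjusted p = 4.62e-05), in all 15 alternative settings as well. ARIH1, which adds ISG15 to 4EHP and ubiquitin to many proteins, was at 104 ± 3.64 and 102 ± 7.57 CPM (0.03, adjusted p = 0.849). ITGAL, the LFA-1 subunit through which free ISG15 acts on lymphocytes, had no read in any library.

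USP18 acts on the interferon receptor through IFNAR2 and STAT2. Of these partners the receptor chains IFNAR1 (35.5 ± 1.29 and 33.9 ± 1.4 CPM, log2 fold change 0.06) and IFNAR2 (15.4 ± 1.24 and 15 ± 0.464 CPM, 0.05) did not pass the test, with adjusted p of 0.662 and 0.830 (edgeR). The receptor kinases JAK1 (-0.15, adjusted p = 0.163) and TYK2 (0.07, 0.652) and SKP2, which directs USP18 to degradation (0.06, 0.638), did not pass either. The transcription factor STAT2, which recruits USP18 to the receptor, rose from 47.3 ± 1.19 to 81.2 ± 7.30 CPM (0.78, SE 0.071, adjusted p = 1.63e-07). IRF9, its DNA-binding partner, rose from 54.0 ± 2.48 to 65.3 ± 7.13 CPM (0.27, SE 0.076, edgeR adjusted p = 0.0253). The IRF9 call was lost on leaving out siALDOA replicate 2 or 3 or any siControl replicate (adjusted p from 0.00147 to 0.161 over all settings). In all, 3 of 8 partners (37.5%) rose and none fell, against 4.36% and 5.29% of all tested genes, with a median of 0.07.

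Other proteases reported to act on ISG15, most of them ubiquitin proteases, were followed beside USP18. USP5 fell from 83.7 ± 2.94 to 69.9 ± 5.05 CPM (-0.26, SE 0.066, edgeR adjusted p = 0.0149), and USP13, with overlapping groups, from 13.8 ± 1.88 to 10.3 ± 1.61 CPM (-0.42, SE 0.13, adjusted p = 0.0486). Both calls were lost with scaling by library totals and without siControl replicate 2 or 3, and that of USP13 also without siALDOA replicate 1 or 3, with limma-voom and with upper quartile scaling (adjusted p up to 0.213 and 0.265). USP2 (-0.68, SE 0.28, adjusted p = 0.140), USP14 (-0.07, 0.519) and USP16 (-0.06, 0.755) did not pass the test. Of the 5 proteases 2 fell and none rose, where 5.29% and 4.36% of all tested genes did, and the median log2 fold change was -0.26.

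Among 18 tested genes for ubiquitin and other ubiquitin-like modifiers, none rose and 2 (11.1%) fell, against 4.36% and 5.29% of all tested genes, with a median of 0.02. The genes that fell, MAP1LC3A (5.75 ± 0.334 and 9.29 ± 1.01 CPM, -0.69, edgeR adjusted p = 0.00265) and MAP1LC3B (61.9 ± 2.27 and 71.8 ± 1.74 CPM, -0.21, adjusted p = 0.0341), encode LC3 proteins that are attached to lipid on autophagosomes. The MAP1LC3B call was lost with library totals and on leaving out any library except siALDOA replicate 1. Without replicate 1 of both groups, 3 genes of this list fell. RPS27A, which encodes ubiquitin fused to a ribosomal protein and was among the most abundant, did not pass in the main analysis (400 ± 49.6 and 399 ± 26.9 CPM, 0.00, adjusted p = 0.985). UBD, which encodes the interferon-inducible modifier FAT10, had no read in any of the 6 libraries.

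The enzymes of the SUMO, NEDD8, UFM1 and ATG8/ATG12 cascades, 35 genes in all, had a median of -0.01. Of them 1 (2.86%) rose and 2 (5.71%) fell, close to the 4.36% and 5.29% of all tested genes. PIAS3, a SUMO ligase that binds STAT3, rose from 51.6 ± 2.07 to 61.1 ± 4.33 CPM (0.24, SE 0.069, edgeR adjusted p = 0.0302). SENP6, a SUMO protease, fell from 59.0 ± 0.634 to 50.2 ± 3.45 CPM (-0.23, SE 0.068, adjusted p = 0.0324). The calls of PIAS3 and SENP6 were lost on leaving out any library except siALDOA replicate 1, and that of SENP6 also with library totals. The most abundant of these genes, UBA2 (228 ± 8.45 and 231 ± 12.3 CPM) and SAE1 (187 ± 10.1 and 197 ± 4.09 CPM), together the E1 enzyme of SUMO, did not pass the test.

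Of 20 genes for proteins known to carry ISG15, 18 were tested, 6 (33.3%) rose and none fell, against 4.36% and 5.29% of all tested genes, with a median of 0.11. IFIT1, which binds viral RNA, rose from 147 ± 15 to 496 ± 45.2 CPM (1.76, SE 0.076, edgeR adjusted p = 5.53e-12), and the RNA sensors IFIH1 (1.25, SE 0.069) and DDX58 (RIG-I; 1.21, SE 0.063) rose as well. So did the GTPase MX1 (1.23, SE 0.083) and the kinase EIF2AK2, also called PKR (0.69, SE 0.057). These 5 are interferon-induced genes themselves, and their calls held in all 15 alternative settings. Over all 91 tested genes of these lists together, 11 (12.1%) rose and 6 (6.59%) fell, where 4.36% and 5.29% of all tested genes did, and the medians were 0.03 and 0.00. With scaling by library totals, 11 rose and 1 fell.

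The genes next to the 6 on their chromosomes were followed to see whether they moved too. Of 20 neighbours, 12 were tested, 2 rose and none fell, where 4.36% of all tested genes rose and 5.29% fell. PPM1K, a mitochondrial phosphatase of branched-chain amino acid breakdown that lies 93970 bases from HERC6, was at 18.4, 17.3 and 16.4 CPM in siControl and 31.6, 28.9 and 33.8 CPM after siALDOA (0.86, SE 0.090, edgeR adjusted p = 1.32e-06). HES4, a transcriptional repressor of the Notch pathway next to ISG15, rose from 10.5 ± 0.832 to 14.6 ± 1.24 CPM (0.48, SE 0.11, adjusted p = 0.00915), a call that was lost without siControl replicate 3 (adjusted p from 0.0017 to 0.0675 over all settings). On the other side of ISG15, AGRN, which encodes agrin, was at 2257 ± 84.1 and 2593 ± 246 CPM and did not pass (0.20, SE 0.082, adjusted p = 0.134); it did pass in 6 of 15 alternative settings, among them DESeq2, limma-voom and the omission of siALDOA replicate 1.

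None of the remaining neighbours passed the test. They were PERM1 (-0.75, SE 0.31) and RNF223 (-0.15, SE 0.21) near ISG15, MIR5193 (0.96, SE 0.58) and TRAIP (0.13, SE 0.19) near UBA7, TIMM10 (-0.19, SE 0.12) near UBE2L6, and TUBA8 (0.18, SE 0.37) and PEX26 (-0.05, SE 0.066) near USP18. PIGY and PYURF, which share a transcript and had nearly the same counts, were both at 0.09 (SE 0.068) near HERC6 and HERC5.

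For each of the 6 genes, the 3 tested genes of most like pattern were found as those with the smallest root mean square difference in log2 CPM, each gene centred on its own mean over the 6 libraries. ISG15 was nearest to DDX60 (0.0211), SAMD9 (0.0395) and IFIH1 (0.0694). UBA7 was nearest to SPNS3 (0.0359), LAP3 (0.0468) and HSH2D (0.0506), and HERC6 to PARP9 (0.0457), HSH2D (0.0512) and SLFN5 (0.0544). UBE2L6 was nearest to IFIT1 (0.0863), IFIT2 (0.0923) and DDX60L (0.0985), and USP18 to IRF7 (0.0415), SHFL (0.0599) and PML (0.0678). HERC5 differed: its nearest were ASPRV1 (0.171), PROCA1 (0.213) and LINC00460 (0.223), at larger distances, and all 3 were under 3 CPM in both groups. HERC5 itself had only 48 to 172 reads per library, and the part of low counts in its distances was not tested. Among the 6 themselves, UBA7 and HERC6 were the closest pair (0.064) and UBE2L6 and HERC5 the farthest apart (0.549). All points share the same libraries, so these distances are a description.

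Of the 17 different genes named by this likeness, 11 were matched in the RefSeq promoter table used here, and 8 of those held the core GAAANNGAAA on either strand: DDX60, DDX60L, IFIH1, IFIT1, LAP3, PARP9, SAMD9 and SHFL. The windows of ASPRV1, PROCA1 and LINC00460, the genes nearest to HERC5, held none, although that of HERC5 itself held 3. As above, 3.57% of all windows held the core. That share counts windows, whereas a gene was counted here if any of its windows held the core. The genes were selected by their expression here, and the count was not tested.

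Markers of other cell types were low. Of the 8 leukocyte markers, only CD14 was tested; it rose from 13.5 to 16.9 CPM (0.32, edgeR adjusted p = 0.0485), a call lost with limma-voom and on leaving out any library except siALDOA replicate 1 (adjusted p from 0.0285 to 0.153 over all settings). PTPRC had 0 or 1 read per library, and CD3E and TYROBP had none. The summed leukocyte markers were at 12.6 to 14.8 CPM in siControl and 16.6 to 17.9 CPM after siALDOA. Summed fibroblast markers were at 3.05 to 4.39 and 3.03 to 4.33 CPM, and summed endothelial markers at 1.41 to 2.12 and 0.493 to 1.30 CPM. Of the 4 endothelial markers only PECAM1 was tested, and it fell from 1.79 ± 0.370 to 0.755 ± 0.399 CPM (-1.23, SE 0.38, edgeR adjusted p = 0.0429), a call lost with library totals and on leaving out any library except siALDOA replicate 2 (adjusted p from 0.00672 to 0.178 over all settings). The part of CD14 and PECAM1 in the values of the 6 genes was not tested.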

How the data were processed

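HT29 RNA was read in pairs of 150 bp. Alignment to hg38 by the authors used tophat2, and gfold gave the deposited raw read counts per gene symbol, 1 file for each of 6 libraries. The gene annotation, the use of strand and the treatment of multiply mapped reads are not given in the sources used here.

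Counts were filtered with filterByExpr, scaled by TMM and fitted with the edgeR 4.0.16 quasi-likelihood test in R 4.3.3, with Benjamini-Hochberg adjustment over all 15307 tested genes and a threshold of 0.05. The SE is the log2 fold change over the square root of F. CPM used TMM-scaled library sizes, and log2 CPM a prior count of 2. Exon lengths came from GENCODE 44 (hg38), which matched 25763 of 28278 symbols. The fit was also run on simulated counts, and the outcome is not reported here. Alternatives were DESeq2 1.42.0, limma-voom (limma 3.58.1), 2 other scalings, no count filter, a minimum of 10 counts in every library, each library left out, a replicate block, and 2 added after the data were seen (without replicate 1 of both groups; without ribosomal RNA genes).

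The 6 genes and the gene lists were chosen with earlier results of these data known. Named were the 6 genes, all tested genes of the short lists and all tested neighbours (2 nearest on each side), and of the 3 longer lists the genes called, up to 6, plus the 2 of highest CPM. A few genes that this rule names are not reported here, though counts over lists include them.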

Additional observations from a re-analysis of the deposited data

How the results depend on the processing

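The log2 fold changes of the 6 genes moved in all 15 alternatives by less than the SD between replicates, pooled over both groups on the log2 CPM scale. Leaving out single libraries gave 1.1 to 1.26 for ISG15, 0.91 to 1.07 for UBA7, 1.66 to 1.84 for UBE2L6, 0.62 to 1.15 for HERC5, 0.86 to 1.06 for HERC6, 0.60 to 0.80 for USP18 and 0.90 to 1.11 for their median. No value reversed. Over all genes, leaving out single libraries gave 359 to 644 genes that rose and 471 to 790 that fell, with the fewest that rose without siControl replicate 2 (359 rose, 490 fell) and siControl replicate 3 (363 rose, 471 fell). Scaling by library totals gave 279 that fell, and moved the median of all genes to 0.075. Of the listed genes, the number that fell was 6 in the main analysis, 1 with library totals and 2 to 5 on leaving out single libraries, with 3 without siALDOA replicate 3 and 2 without siControl replicate 2 or 3. The number that rose was 8 to 10 on leaving out single libraries. Of the neighbours, 1 to 3 rose, with 1 without siControl replicate 3. The order of levels per kilobase was the same with the longest transcript as length. HERC5 had the fewest reads of the 6 genes, with 48 to 172 per library, and its spread between replicates exceeded counting error.

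Whether the replicate numbers pair the libraries was not settled. Deviations from the group means correlated by 0.035, 0.027 and 0.026 between libraries of the same number. Between libraries of different numbers they correlated by -0.046 to 0.022. Each siALDOA library correlated most with the siControl library of its own number. With the replicate number as a block, 987 genes rose and 1175 fell, 11 listed genes rose and 6 fell, 2 neighbours rose, and the log2 fold changes were 1.18 for ISG15, 0.97 for UBA7, 1.72 for UBE2L6, 0.90 for HERC5, 0.94 for HERC6 and 0.69 for USP18.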
